A study of Mus musculus with 18 samples.

Results

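The livers described here came from wild-type mice that carried a control antisense oligonucleotide (ASO) and were fed either of 2 diets. The control ASO was joined to GalNAc, a sugar that delivers it to hepatocytes, and is labelled GalNAc-conASO. The study's samples are 18, of which 9 carried the control ASO: HFHC replicates 1, 2, 4 and 5, and CDAHFD replicates 1 to 5. CDAHFD stands for a high-fat diet without choline whose protein is replaced by a defined mix of amino acids, and it is used to induce steatohepatitis. HFHC is given only as this abbreviation in the sources used here. Ages and times on the diets are not given there. The remaining 9 samples carried an ASO against Mdm2 and serve here only as a side-by-side reading of the same diets; a pair of them, on HFHC, held identical values and was counted as 1 sample. Total RNA was extracted from liver, so hepatocytes dominate each library and other cell types contribute in small amounts. No group on a standard diet and no group without an ASO was analysed here. Each diet was a table of its own with its own normalization, and no library links them, so diet and experiment cannot be told apart in any difference below. "CDAHFD" and "HFHC" therefore name the libraries of those tables, not a cause.

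Choline is needed to make phosphatidylcholine, the phospholipid that coats very-low-density lipoprotein (VLDL), and diets that lack it are known to trap triglyceride in hepatocytes. Hepatocytes sense sterols through SREBP2, which switches on genes of cholesterol synthesis and uptake when membrane cholesterol is low, and through the LXR receptors, which switch on genes of sterol export and of fatty acid synthesis when oxysterols are high. SREBP1c and ChREBP (gene Mlxipl) drive fatty acid synthesis under insulin and glucose. The question the comparison can address is how the same liver tissue under the same control ASO differed between the livers fed these diets.

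The libraries separated by diet before any gene was tested. HFHC libraries held 17770748 to 18490360 reads in genes and CDAHFD libraries 24167953 to 31453055. Correlations of log2 values across genes were 0.973 to 0.981 within HFHC, 0.970 to 0.979 within CDAHFD and 0.944 to 0.953 between diets. The first principal component held 45.5% of the variance and split the diets, and CDAHFD replicate 3 lay apart from the other CDAHFD libraries on the second, which held 12.1%. Mitochondrial transcripts took 6.08 to 7.55% of reads on HFHC and 6.32 to 8.43% on CDAHFD. All 9 libraries had low Xist, at most 9.91, and high Ddx3y, at least 813, which is the pattern of male tissue. Mdm2, the target of the other ASO, is a check on the labels: on a scale common to all libraries it was 1024 to 1117 in control ASO livers on HFHC and 345 to 479 with the Mdm2 ASO, and 1336 to 1526 and 523 to 809.6 on CDAHFD.

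A feature of the annotation moved with the table and touches many of the largest differences. Genes whose exons overlap those of a gene on the opposite DNA strand were lower in the CDAHFD libraries, the more so the larger the overlap. Among genes with a mean of at least 50 normalized counts in the higher group, 13.4% of the 8038 with no opposite-strand overlap were lower on CDAHFD (adjusted p under 0.05), 35.3% of the 841 with 10 to 25% of their exonic bases overlapping, and 74.3% of the 105 with over 50%. The median log2 difference in these 3 groups was 0.04, -0.19 and -1.62. The same order held in the Mdm2 ASO livers, where 23.4% and 72.4% of the genes with no and with over 50% overlap were lower on CDAHFD. Inside each table, the median log2 difference of Mdm2 ASO minus control ASO was -0.04 and -0.16 in the lowest and highest overlap groups on HFHC, and -0.03 and -0.07 on CDAHFD. The library kit is strand-specific per the labels, and how strand was used when reads were counted is not given in the sources used here. Its part in any single gene was not tested. The share of exonic bases that overlap an opposite-strand gene is therefore given beside each named gene where it is above 10%, and list counts in control ASO livers are given for all members and for members whose exons overlap no other annotated gene.

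**Figure D1:**
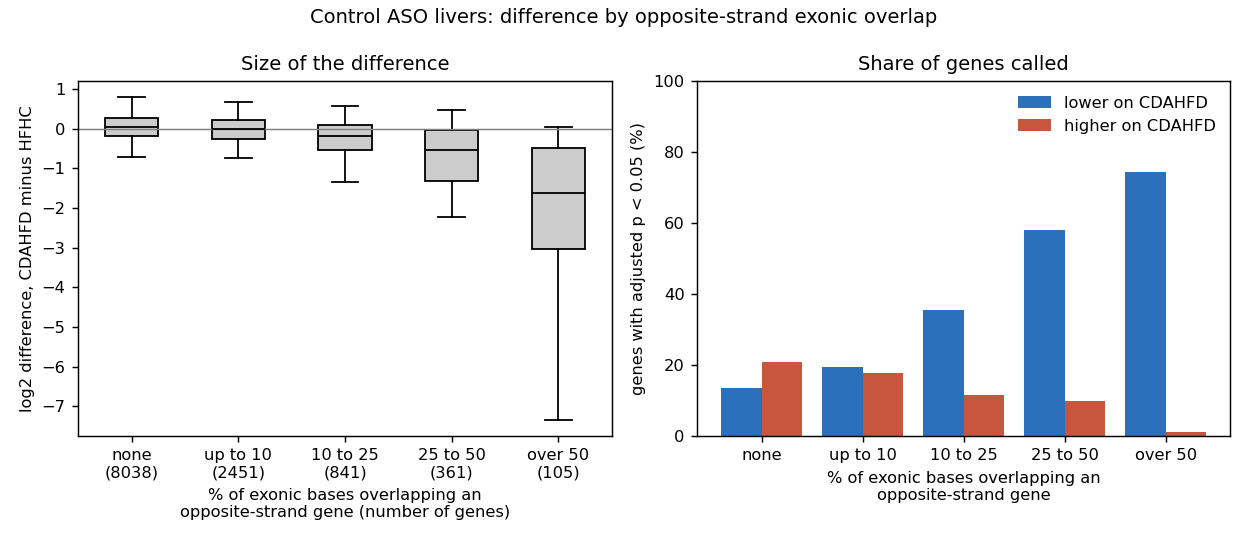
Left, log2 difference between control ASO livers (CDAHFD minus HFHC) for genes with a mean of at least 50 normalized counts, by the percentage of exonic bases that overlap a gene on the opposite strand; boxes show quartiles and medians, whiskers the 5th and 95th percentiles, and numbers of genes are in brackets. Right, percentage of the same genes with an adjusted p under 0.05, lower or higher on CDAHFD. The median falls from 0.04 with no overlap to -1.62 with over 50%, and the share lower on CDAHFD goes from 13.4 to 74.3%.

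Transcript levels are normalized counts, that is, reads rescaled so that all 9 libraries have the same effective size; they compare libraries for 1 gene, not genes with each other. Differences are CDAHFD minus HFHC on log2(value + 0.5) with their standard error (SE), so they understate changes of genes with few reads, and p-values are from limma, adjusted over all genes. A gene is said to have risen or fallen where the adjusted p was under 0.05. Named genes that passed were mostly picked by low p-values or by separate groups, which favours groups that do not overlap. The share of all genes whose groups do not overlap is not given here. Since these are whole-tissue samples, a lower level of a cell type's transcripts can be fewer cells or less RNA per cell, which cannot be told apart. Of 17340 genes tested, 5390 (31.1%) passed, 2698 higher on CDAHFD (15.6%) and 2692 lower (15.5%), and 7143 had an unadjusted p under 0.05. Of those that passed, 744 rose at least 2-fold (4.29% of genes tested) and 1050 fell at least 2-fold (6.06%). Of the 11195 genes with no exonic overlap, 1823 rose (16.3%) and 1258 fell (11.2%). The list counts below stand beside these shares of all genes and of genes with no exonic overlap. With the deposited values left on the separate scales of the 2 tables, the median log2 difference of all genes was 0.292 against -0.01, and 83.9% of the genes that passed were higher, against 50.1% here, so where that scaling turns the balance of a list its counts follow as "on the deposited scales". Of 10 transcripts tested on a list of non-polyadenylated and nuclear RNA, kept as a sign of library quality, 4 rose and 0 fell (8 rose on the deposited scales; 2 of the 4 with no exonic overlap rose), among them the histone gene H2bc4 from 1587 ± 37.3 to 4424 ± 325 (log2 difference 1.48, SE 0.07, adjusted p = 5.2e-08). The summed level of that list was 45174 to 72122 on HFHC and 63165 to 75757 on CDAHFD, and its part in the other results was not tested. The labels do not say whether the samples of a group are separate animals, so the p-values measure the spread between these samples.

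Most genes of cholesterol synthesis and uptake were higher on CDAHFD. Of 27 members tested, 18 rose and 1 fell (15.6% and 15.5% of all genes), with a median log2 difference of 1.12 against -0.01 over all genes. Of the 18 members with no exonic overlap, 13 rose. Sqle, squalene epoxidase and a rate-controlling step of the pathway, held 67.3, 16.9, 36.6 and 51.3 normalized counts in HFHC replicates 1, 2, 4 and 5 and 545, 960.4, 315, 472 and 371 in CDAHFD replicates 1 to 5. Every CDAHFD liver was above every HFHC liver, and the rise was the largest of the pathway (log2 difference 3.67, SE 0.38, adjusted p = 2.4e-05). Idi1, the isopentenyl diphosphate isomerase, went from 33.7, 9.12, 7.57 and 25.6 to 185, 452, 35.5, 199 and 87.1; the groups did not overlap, but CDAHFD replicate 3 lay next to HFHC replicate 1 (log2 difference 3.10, SE 0.65, adjusted p = 0.0036). Msmo1, a methylsterol oxidase of the late pathway, was 267, 318, 279 and 277 on HFHC and 1860.0, 2361, 683, 1530.5 and 1125 on CDAHFD (log2 difference 2.28, SE 0.28, adjusted p = 7.8e-05). Cyp51, the lanosterol demethylase, was 248, 202, 198 and 191 and 1175, 1845, 637, 938 and 902 (log2 difference 2.30, SE 0.23, adjusted p = 2.0e-05). In all 4 of these genes CDAHFD replicate 2 was the highest library and CDAHFD replicate 3 the lowest of its group.

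Other members rose by less than Sqle. Hmgcs1, the synthase at the head of the mevalonate route, rose from 1971 ± 132 (SD, n = 4) to 3929 ± 1482 (SD, n = 5; log2 difference 0.92, SE 0.21, adjusted p = 0.0062; 12.1% of its exonic bases overlap). Fdps, farnesyl diphosphate synthase, went from 365 ± 52.4 to 1303 ± 465 (log2 difference 1.76, SE 0.24, adjusted p = 1.9e-04). Mvd, mevalonate diphosphate decarboxylase, went from 60.5 ± 13.6 to 195 ± 81.9 (log2 difference 1.62, SE 0.26, adjusted p = 6.1e-04). Srebf2, which encodes SREBP2 and is among its own targets, rose from 809, 786, 858 and 946 to 1843, 2022, 1315, 1713 and 1363 (log2 difference 0.94, SE 0.12, adjusted p = 1.6e-04).

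Promoter sequences of these genes are shown because the members moved together; the data here do not measure binding. SREBP2 is known to act beside NF-Y, which binds CCAAT boxes. RefSeq promoter windows (GRCm38.p6, 250 bases before to 50 after each gene's start) matched 19 of the 27 genes, with 22 windows. The letters CCAAT, on either strand (ATTGG), were in windows of 18 of the 19 genes and in 18 of the 22 windows, against 12289 of 32851 windows of the same length (37.4%). The longer string TCACNCCAC, a core of the sterol response element (GTGGNGTGA on the other strand), was in 1 of the 19 genes, Hmgcs1, against 1.24% of all windows. In the stretches below, from 5′ to 3′ on each gene's own strand and upstream of its start, capitals mark CCAAT or its reverse complement ATTGG and, in Hmgcs1, also TCACCCCAC.
Hmgcs1, chr13:119690161-119690320, + strand: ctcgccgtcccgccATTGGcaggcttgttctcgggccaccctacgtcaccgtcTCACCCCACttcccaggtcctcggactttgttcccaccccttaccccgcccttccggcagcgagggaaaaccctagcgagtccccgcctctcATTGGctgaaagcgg
Idi1, chr13:8885546-8885605, + strand: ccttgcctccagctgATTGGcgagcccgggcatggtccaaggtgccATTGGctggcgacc
Cyp51, chr5:4104698-4104767, - strand: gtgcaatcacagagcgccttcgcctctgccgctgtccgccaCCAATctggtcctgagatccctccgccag
Msmo1, chr8:64733619-64733768, - strand: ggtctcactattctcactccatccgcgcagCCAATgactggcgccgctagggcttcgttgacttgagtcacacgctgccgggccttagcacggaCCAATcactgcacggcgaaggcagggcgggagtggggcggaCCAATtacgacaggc
Hmgcs1 and Idi1 hold 2 CCAAT boxes in these stretches, Cyp51 holds 1 and Msmo1 holds 3. A match of letters is a description of the window and not evidence of a bound site.

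Several targets of LXR that move sterol out of cells were lower on CDAHFD. Of 16 genes of sterol export and LXR signalling, 6 fell and 2 rose (6 and 6 on the deposited scales), with a median log2 difference of -0.21; of the 10 with no exonic overlap, 3 fell and 1 rose. Abca1, the transporter that loads cholesterol onto apolipoprotein A-I, was 3165, 3679, 3601 and 3539.8 on HFHC and 2332, 2210.2, 1952, 2321 and 2327 on CDAHFD, 2 tight and separate groups (log2 difference -0.65, SE 0.08, adjusted p = 6.1e-05). Abcg1, the exporter to high-density lipoprotein, fell from 399 ± 33.3 to 258 ± 40.3 (log2 difference -0.64, SE 0.13, adjusted p = 0.0024). Mylip, an LXR-induced ubiquitin ligase, fell from 321 ± 59.3 to 169.6 ± 27.9 (log2 difference -0.91, SE 0.15, adjusted p = 8.2e-04). Abcg5 and Abcg8 encode the subunits of the transporter that sends sterol into bile. Abcg5 was 3496, 8169, 6505 and 3948 on HFHC and 2295, 1772, 1206, 1804 and 2464 on CDAHFD (log2 difference -1.49, SE 0.26, adjusted p = 9.4e-04), and Abcg8 was 2022, 4976, 3903 and 2507 and 2028, 1760.0, 885, 1724 and 1678, with HFHC replicate 1 just below the highest CDAHFD liver (log2 difference -1.02, SE 0.27, adjusted p = 0.014). In both genes HFHC replicates 2 and 4 were well above replicates 1 and 5. Pltp, the phospholipid transfer protein, fell from 2049 ± 236 to 413 ± 94.1 (log2 difference -2.33, SE 0.15, adjusted p = 7.0e-07; 19.3% overlap with Ctsa). The receptors themselves went the other way by little: Nr1h3 (LXR alpha) from 2089 ± 186 to 2559.9 ± 91.5 (log2 difference 0.30, SE 0.07, adjusted p = 0.0085) and Nr1h2 (LXR beta) from 1186 ± 24.5 to 1585 ± 121 (log2 difference 0.42, SE 0.07, adjusted p = 9.0e-04).

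Many genes of fatty acid synthesis were lower on CDAHFD, led by the desaturase Scd1. Of 19 genes of fatty acid synthesis and desaturation, 11 fell and 1 rose (median log2 difference -0.86), and of the 11 with no exonic overlap 5 fell and 1 rose (median -0.16). Scd1, stearoyl-CoA desaturase 1, which makes oleate from stearate, was 274463, 292712, 271879 and 199286 on HFHC and 4286, 5196, 3611, 11723 and 1209 on CDAHFD. The groups were far apart, and CDAHFD itself spread from 1209 in replicate 5 to 11723 in replicate 4 (log2 difference -5.97, SE 0.47, adjusted p = 2.8e-06). Elovl6, the elongase that supplies Scd1 with stearate, fell from 1089.6, 1049, 1016 and 962 to 392, 418, 247, 339 and 214 (log2 difference -1.72, SE 0.18, adjusted p = 2.1e-05). Me1, malic enzyme, a source of NADPH for the pathway, fell from 2517 ± 184 to 639 ± 261 (log2 difference -2.08, SE 0.26, adjusted p = 8.6e-05). Fasn, fatty acid synthase, fell from 4264 ± 365 to 2004 ± 471 (log2 difference -1.12, SE 0.14, adjusted p = 1.3e-04). Scd2, the desaturase of other tissues, fell as well (log2 difference -1.35, SE 0.17, adjusted p = 1.0e-04). The desaturases of polyunsaturated fatty acids gave log2 differences of 0.05 (Fads1, adjusted p = 0.86) and -0.14 (Fads2, adjusted p = 0.57), and the elongase Elovl5 gave 0.01 (adjusted p = 0.97). Slc25a1, the mitochondrial citrate carrier, was the member that rose, from 2862 ± 131 to 3803 ± 333 (log2 difference 0.41, SE 0.08, adjusted p = 0.0019).

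The regulators of that pathway were lower too. Srebf1, which encodes SREBP1, was 2570.0, 4808, 3357 and 3132 on HFHC and 1897, 1289, 1001, 991 and 1562 on CDAHFD, with no overlap (log2 difference -1.37, SE 0.21, adjusted p = 4.1e-04). Mlxipl fell from 13934 ± 1457 to 8858 ± 1293 (log2 difference -0.66, SE 0.12, adjusted p = 0.0012), and Thrsp, a lipogenic protein under both factors, from 1496 ± 348 to 616 ± 281 (log2 difference -1.36, SE 0.28, adjusted p = 0.0032). Of 26 genes of glucose and fructose metabolism, 7 fell and 5 rose, beside 15.5% and 15.6% of all genes. The counts were 5 and 10 on the deposited scales, and 7 and 2 without HFHC replicate 5. Among the 20 with no exonic overlap 6 fell and 4 rose. Pklr, liver pyruvate kinase and a ChREBP target, fell from 3912 ± 707 to 1066 ± 208 (log2 difference -1.88, SE 0.16, adjusted p = 4.3e-06; 22.0% overlap). Hk2, the hexokinase of muscle and fat, fell from 274, 167, 168 and 249 to 46.8, 51.3, 60.6, 54.1 and 64.4 (log2 difference -1.92, SE 0.19, adjusted p = 1.3e-05). Ppp1r3c, which targets phosphatase to glycogen, fell (log2 difference -0.94, SE 0.19, adjusted p = 0.0033), but did not pass in 1 limma fit over all groups. Pygl, liver glycogen phosphorylase, also fell (log2 difference -0.76, SE 0.12, adjusted p = 5.6e-04). Pck1, the entry enzyme of gluconeogenesis, was among those that rose, from 34055, 69406, 54380.1 and 36643 to 107552, 81866, 60248, 101257 and 89404, with CDAHFD replicate 3 inside the HFHC range (log2 difference 0.89, SE 0.24, adjusted p = 0.015; 0.77 and no longer past the threshold without HFHC replicate 5).

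**Figure D2:**
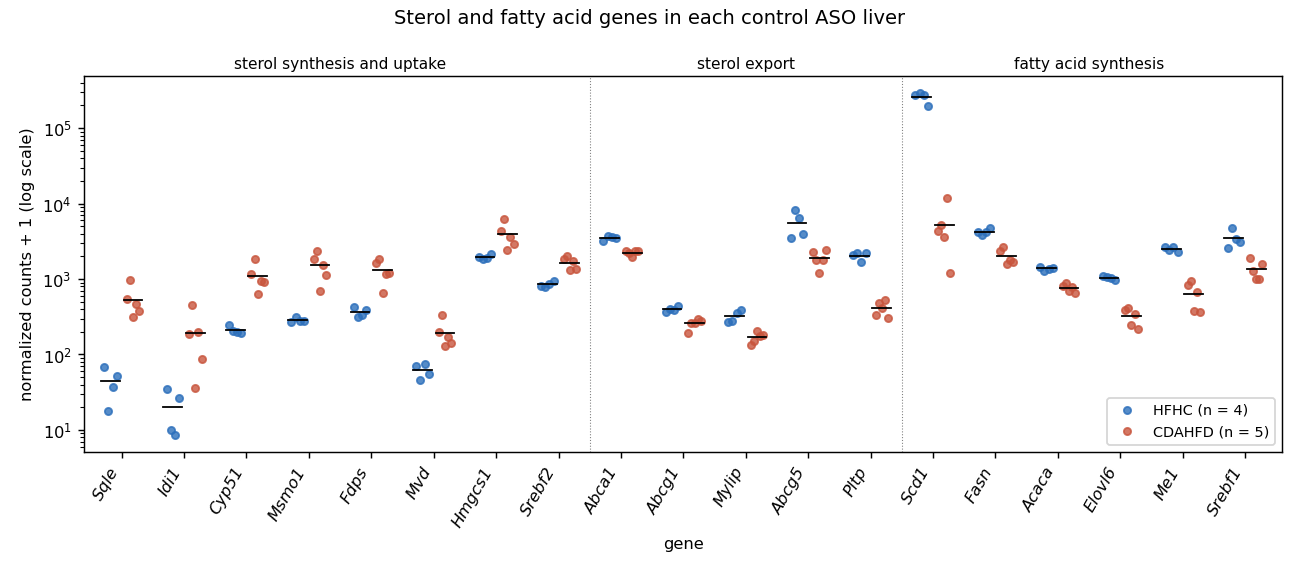
Normalized counts plus 1 (log axis) of genes of sterol synthesis and uptake, sterol export and fatty acid synthesis in each control ASO liver; each point is a library (4 on HFHC, 5 on CDAHFD) and each bar the group mean. Sqle is at 16.9 to 67.3 on HFHC and 315 to 960.4 on CDAHFD, while Scd1 is at 199286 to 292712 and 1209 to 11723.

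The genes that store triglyceride did not move as 1 group. Of 17 lipid droplet genes tested, 4 rose and 5 fell, beside 15.6% and 15.5% of all genes (9 and 5 on the deposited scales). Among the 10 with no exonic overlap 4 rose and 1 fell. Plin2, the coat protein of hepatocyte lipid droplets, rose from 21406 ± 1928 to 32639 ± 5334 (log2 difference 0.60, SE 0.13, adjusted p = 0.0051). Plin5, which ties droplets to mitochondria, rose from 2309 ± 117 to 3492 ± 349.9 (log2 difference 0.59, SE 0.08, adjusted p = 2.2e-04), and Pnpla2, the triglyceride lipase ATGL, from 2969 ± 198 to 4281 ± 569 (log2 difference 0.52, SE 0.10, adjusted p = 0.0021). Cidea, a droplet fusion protein that marks steatotic hepatocytes and brown fat, was 1613, 563, 376 and 842 on HFHC and 7.11, 0.869, 6.06, 2.29 and 0.871 on CDAHFD. By the size of its log2 difference it ranked first among the decreases in genes with no exonic overlap (log2 difference -7.91, SE 0.58, adjusted p = 1.6e-06), in 2793 reads over the HFHC libraries against 19 over the CDAHFD libraries. Plin4 fell from 7411 ± 895 to 2565 ± 611 (log2 difference -1.56, SE 0.15, adjusted p = 1.6e-05), and Cidec, a related fusion protein, gave 0.13 (adjusted p = 0.48). Cideb fell from 6023 ± 441 to 299.9 ± 76.4 (log2 difference -4.36, SE 0.17, adjusted p = 1.1e-08), but 76.3% of its exonic bases overlap Nop9 on the other strand.

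Cidea is also a marker of adipose tissue, and the other adipose markers are given beside it. Of 8 markers listed, 4 were tested and 3 of these fell, as did the 3 with no exonic overlap. The summed level of the list was 29921 to 53525 on HFHC and 7792 to 18158 on CDAHFD, of which most is Car3, carbonic anhydrase 3, which hepatocytes also make (log2 difference -1.54, SE 0.25, adjusted p = 5.8e-04). Cfd, adipsin, was 528, 715, 375 and 549 on HFHC and 49.8, 16.5, 1.73, 6.86 and 25.3 on CDAHFD (log2 difference -5.35, SE 0.70, adjusted p = 1.3e-04), and Adrb3, the beta-3 adrenergic receptor, was 487 ± 99.3 and 387 ± 87.6 (adjusted p = 0.17). The markers that define adipocytes were at or near 0 in every library: Adipoq at most 2.03, Plin1 at most 2.41, Retn at most 1.74, and Lep at 0. Without CDAHFD replicate 3, which held the least Cfd among CDAHFD livers, its log2 difference was -4.72.

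Triglyceride synthesis and fatty acid oxidation held changes in both directions. Of 12 triglyceride synthesis genes, 6 rose and 2 fell, and of the 7 with no exonic overlap 4 rose and 1 fell. Mogat1, a monoacylglycerol acyltransferase raised in steatotic liver, fell from 296, 356, 227 and 315 to 61.0, 28.7, 32.9, 61.8 and 21.8 (log2 difference -2.94, SE 0.30, adjusted p = 1.9e-05; 12.8% overlap), while Mogat2, the intestinal form, rose from 30.1, 6.52, 10.1 and 22.1 to 106, 62.6, 84.8, 127 and 92.3 (log2 difference 2.62, SE 0.40, adjusted p = 4.0e-04). Dgat1 rose from 705 ± 40.5 to 917 ± 54.2 (log2 difference 0.38, SE 0.07, adjusted p = 0.0019), and Dgat2, the other enzyme of the last step, did not pass (-0.17, adjusted p = 0.25). Of 30 genes that oxidise fatty acids or answer to PPAR alpha, 8 rose and 5 fell, beside 15.6% and 15.5% of all genes. Among the 20 with no exonic overlap 6 rose and 2 fell. Pdk4, which spares glucose by blocking pyruvate oxidation, rose from 1132, 687, 605 and 716 to 3052, 2603, 1471, 1531 and 1946 (log2 difference 1.42, SE 0.23, adjusted p = 6.3e-04). Cyp4a14, a fatty acid hydroxylase and PPAR alpha target, rose from 30274 ± 6406 to 76786 ± 23489 (log2 difference 1.31, SE 0.25, adjusted p = 0.0021), and the acyl-CoA thioesterase Acot1 from 1442 ± 97.7 to 3266 ± 1271 (log2 difference 1.09, SE 0.24, adjusted p = 0.0048). Ppara itself fell from 2094 ± 194 to 1428 ± 275 (log2 difference -0.57, SE 0.14, adjusted p = 0.0076). Cpt1a, the gate of mitochondrial oxidation, gave 0.26 (adjusted p = 0.14; past it without CDAHFD replicate 5, at 0.35). Acadvl, the very-long-chain dehydrogenase, fell from 11181 ± 414 to 2996 ± 1064 (log2 difference -1.98, SE 0.22, adjusted p = 3.6e-05), with 42.9% of its exonic bases overlapping an opposite-strand gene.

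Lipoprotein and choline genes were mixed. Of 19 genes of VLDL assembly and apolipoproteins, 4 rose and 4 fell, beside 15.6% and 15.5% of all genes. The counts were 11 and 2 on the deposited scales, and 7 and 4 without CDAHFD replicate 3. Among the 12 with no exonic overlap, 3 rose and 1 fell. Apob, the structural protein of VLDL, gave -0.09 (adjusted p = 0.71). Mttp, which loads it with lipid, gave 0.33 (adjusted p = 0.051) and passed without CDAHFD replicate 3 or 5, at 0.39 and 0.40. Mttp also passed with edgeR (0.34, adjusted p = 0.047), with DESeq2 (0.34, adjusted p = 0.022) and with each of the other scalings. With other pseudocounts, with thinned reads and with no filter on low values it did not pass. Apom, a carrier of sphingosine-1-phosphate, rose from 986, 1307, 1322 and 1127 to 3092, 3151, 2035, 2648 and 1909 (log2 difference 1.09, SE 0.16, adjusted p = 2.5e-04), and Apoc3, an inhibitor of lipoprotein clearance, from 37979 ± 5428 to 56748 ± 7238 (log2 difference 0.58, SE 0.15, adjusted p = 0.011). Apoa4 fell from 145051 ± 41411 to 31495 ± 9024 (log2 difference -2.20, SE 0.24, adjusted p = 3.5e-05), with 69.8% of its exonic bases overlapping an opposite-strand gene. Of 33 genes of choline, methionine and phospholipid metabolism, 6 rose and 6 fell, close to the shares over all genes (15 and 5 on the deposited scales), and of the 17 with no exonic overlap 5 rose and 0 fell. Bhmt, which uses the choline product betaine to remake methionine, rose from 68911, 80278, 65795 and 77683 to 209924, 162791, 156549, 205123 and 153250.0, with no overlap (log2 difference 1.27, SE 0.19, adjusted p = 4.4e-04). Pemt, which makes phosphatidylcholine by methylation without dietary choline, rose from 4363, 4885, 5296 and 4483 to 7556, 6838, 6463, 7463 and 6437 (log2 difference 0.55, SE 0.08, adjusted p = 4.6e-04). Cth, which turns cystathionine into cysteine, rose from 5948 ± 2111 to 11455 ± 1989 (log2 difference 1.00, SE 0.21, adjusted p = 0.0035).

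The 6 members that fell all had exonic overlap with another gene, and 4 of them are given here. Slc44a1, a choline transporter, fell from 1092, 1264, 1178 and 1131 to 710.4, 633, 679.9, 609 and 584 (log2 difference -0.86, SE 0.08, adjusted p = 9.0e-06; 4.46% overlap). Pcyt1a, the rate-limiting enzyme of the CDP-choline route, fell from 1663 ± 68.9 to 785 ± 208 (log2 difference -1.12, SE 0.16, adjusted p = 2.7e-04; 9.09% overlap). Chkb, choline kinase beta, fell from 371 ± 17.0 to 99.4 ± 17.5 (log2 difference -1.91, SE 0.14, adjusted p = 1.3e-06; 10.5% overlap, and 50.7% with a gene on its own strand), and its paralog Chka gave -0.43 (adjusted p = 0.12). Chdh, which oxidises choline towards betaine, fell from 5032 ± 199.6 to 3332 ± 509.5 (log2 difference -0.61, SE 0.11, adjusted p = 0.0011; 9.47% overlap).

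Of 27 genes of bile acid synthesis and transport, 4 rose and 5 fell, close to the shares over all genes (10 and 4 on the deposited scales; 2 and 5 without HFHC replicate 5; 2 and 4 without CDAHFD replicate 2), and of the 22 with no exonic overlap 4 rose and 4 fell. Cyp7a1, the rate-limiting enzyme of the classical route, was 2418, 3309.8, 1605 and 2898 on HFHC and 1681, 2797, 2025, 4479 and 1387 on CDAHFD (adjusted p = 0.78), and Cyp8b1, which sets the share of cholic acid, spread from 2937 to 18200 among CDAHFD livers (adjusted p = 0.70). Abcc3, a basolateral exporter, fell from 9465 ± 805 to 5620.4 ± 1450.0 (log2 difference -0.79, SE 0.18, adjusted p = 0.005). Hsd3b7 fell from 833 ± 80.7 to 18.6 ± 5.97 (log2 difference -5.49, SE 0.20, adjusted p = 1.0e-08), with 62.4% of its exonic bases overlapping an opposite-strand gene.

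Markers of sinusoidal endothelium, the fenestrated vessel lining of liver, were lower on CDAHFD. Of 16 tested, 13 fell (15.5% of all genes did), with a median log2 difference of -1.56; of the 9 with no exonic overlap, 8 fell (11.2% of all such genes did). Their summed level was 7757 to 8634 on HFHC and 3622 to 5420 on CDAHFD, and no member was at 0. Flt4, the VEGF receptor 3, was 1100.4, 598, 672 and 718 on HFHC and 99.6, 119, 208, 101 and 169 on CDAHFD (log2 difference -2.49, SE 0.23, adjusted p = 1.1e-05). Kdr, the VEGF receptor 2, was 455, 533, 465 and 388 and 103, 166, 162, 98.4 and 160.2 (log2 difference -1.77, SE 0.18, adjusted p = 1.9e-05). Both genes separated the diets with no library between the groups. Gpr182, an endothelial chemokine receptor, fell from 383 ± 21.8 to 118 ± 27.3 (log2 difference -1.73, SE 0.18, adjusted p = 2.0e-05), and Lyve1, the hyaluronan receptor, from 161 ± 17.6 to 56.0 ± 14.9 (log2 difference -1.56, SE 0.21, adjusted p = 1.7e-04). The junction genes Pecam1 (log2 difference -1.57, SE 0.20, adjusted p = 1.1e-04) and Cdh5 (log2 difference -1.76, SE 0.20, adjusted p = 5.7e-05) fell with them, as did Dnase1l3 (log2 difference -1.96, SE 0.27, adjusted p = 1.9e-04) and Oit3 (log2 difference -1.81, SE 0.27, adjusted p = 3.2e-04). Wnt2, an endothelial signal to pericentral hepatocytes, fell from 54.5 ± 17.1 to 17.6 ± 8.15 (log2 difference -1.68, SE 0.37, adjusted p = 0.0046), while Rspo3, its partner signal, gave -0.05 (adjusted p = 0.83). The scavenger receptors differed: Stab2 fell from 1542 ± 177 to 997 ± 144 (log2 difference -0.63, SE 0.11, adjusted p = 0.0012), and Stab1, which macrophages also make, was 1193 ± 73.5 and 1438 ± 297 (adjusted p = 0.16).

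Most markers of resident macrophages were lower on CDAHFD. Of 11 Kupffer cell markers, 1 of them (Cdh5) also on the endothelial list, 7 fell and 1 rose (median log2 difference -1.21), and of the 10 with no exonic overlap 6 fell and 1 rose. Their summed level was 9991 to 15188 on HFHC and 9030.4 to 10316 on CDAHFD. Timd4, a marker of long-lived Kupffer cells, was 26.5, 119.9, 39.1 and 169 on HFHC and 11.2, 30.4, 5.19, 8.39 and 7.84 on CDAHFD, with CDAHFD replicate 2 just above the lowest HFHC liver (log2 difference -2.65, SE 0.59, adjusted p = 0.005). Vsig4, a complement receptor of Kupffer cells, was 314, 799, 430.0 and 909 and 97.6, 218, 239, 259 and 131 (log2 difference -1.66, SE 0.35, adjusted p = 0.0035). Cd5l fell from 4069 ± 1241 to 1337 ± 350.3 (log2 difference -1.60, SE 0.23, adjusted p = 2.7e-04) and Adgre1, which encodes F4/80, from 439.7 ± 165 to 186 ± 55.1 (log2 difference -1.21, SE 0.26, adjusted p = 0.0041). Clec4f, the lectin most specific to Kupffer cells, did not pass (log2 difference -0.55, SE 0.24, adjusted p = 0.11; past the threshold without HFHC replicate 1, at -0.73). Marco split HFHC, at 33.7, 353, 26.5 and 453, as much as it spread on CDAHFD, at 158, 337, 72.7, 176 and 72.3 (adjusted p = 0.80); its log2 difference was -0.34 without HFHC replicate 4 and 1.00 without HFHC replicate 5. On HFHC, replicates 2 and 5 had the highest levels of all 6 of these genes and replicates 1 and 4 the lowest. The member that rose, C6, is a complement protein that hepatocytes make (log2 difference 1.02, SE 0.19, adjusted p = 0.0019). Folr2 fell from 226 ± 79.9 to 8.87 ± 5.39, with 63.1% of its exonic bases overlapping an opposite-strand gene.

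Of 16 markers of lipid-associated macrophages, the cells that gather around steatotic hepatocytes, 6 rose and 1 fell, beside 15.6% and 15.5% of all genes. Among the 11 with no exonic overlap 4 rose and 1 fell. Their summed level did not rise with these members, at 689490 to 842700 on HFHC and 545460 to 730350 on CDAHFD. The sum includes Apoe, which is also on the apolipoprotein list. Gpnmb, a lysosomal glycoprotein of these cells, was 901, 769, 903 and 984 on HFHC and 1699, 3099, 3343, 4778 and 3073 on CDAHFD (log2 difference 1.78, SE 0.22, adjusted p = 9.1e-05). Mmp12, macrophage elastase, was 530.4, 602, 463 and 556 and 1233, 2579.6, 2098, 3147 and 2717 (log2 difference 2.07, SE 0.22, adjusted p = 2.6e-05). Neither gene had a library of 1 diet inside the range of the other. Trem2, the lipid-sensing receptor that names the state, rose from 316, 215, 224 and 293 to 429, 541, 702, 647 and 698 (log2 difference 1.20, SE 0.16, adjusted p = 1.9e-04), and Lgals3, galectin-3, from 1061 ± 161 to 2582 ± 639 (log2 difference 1.25, SE 0.19, adjusted p = 3.4e-04). Spp1, osteopontin, was 11990.2, 3667, 4830.1 and 8443 on HFHC and 4328, 2699, 9130.3, 2845 and 6089.9 on CDAHFD (adjusted p = 0.33), and Cd9 gave 0.22 (adjusted p = 0.40). Lpl, lipoprotein lipase, fell from 3535 ± 416 to 2219 ± 328 (log2 difference -0.68, SE 0.11, adjusted p = 7.1e-04), but did not pass in 1 limma fit over all groups. Of 16 monocyte and neutrophil markers tested, 1 rose and 2 fell (4 and 0 on the deposited scales; 1 to 3 rose and 0 or 1 fell without HFHC replicate 1 or 5 or CDAHFD replicate 1 or 2), and of the 13 with no exonic overlap 0 rose and 2 fell. Over all genes 15.6% rose and 15.5% fell. The 2 members that fell are not reported here by name. The member that rose was Itgam, the integrin CD11b, from 43.5 ± 11.1 to 111 ± 22.8 (log2 difference 1.34, SE 0.21, adjusted p = 5.5e-04). Itgam is not among the 13 with no exonic overlap. The monocyte receptor Ccr2 gave 0.13 (adjusted p = 0.62).

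Some immunoglobulin transcripts were lower on CDAHFD. Of 12 B and plasma cell markers, 4 fell (15.5% of all genes did), as did 3 of the 10 with no exonic overlap. The summed level of the list was 5395 to 7128 on HFHC and 4551 to 5689 on CDAHFD. Ighm was 559, 347, 459 and 1354 on HFHC and 78.3, 151, 190.3, 194 and 164 on CDAHFD (log2 difference -1.99, SE 0.36, adjusted p = 0.0013), and Igkc was 465, 203, 399.8 and 964 and 55.9, 115, 194, 113 and 115 (log2 difference -1.98, SE 0.40, adjusted p = 0.0029). In both, HFHC replicate 5 was the highest library.

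Fibrosis lists held members that rose and members that fell, and the bile duct list held neither with limma. The shares of matrix remodelling, stellate cell and TGF-beta genes that passed were close to that of all genes (31.1%). Those of the collagen and cholangiocyte lists were lower. Of 29 collagens and matrix glycoproteins, 1 rose and 4 fell (7 and 2 on the deposited scales; 3 and 3 without HFHC replicate 1; 3 and 2 without HFHC replicate 5), and of the 19 with no exonic overlap 0 rose and 3 fell. Of 18 hepatic stellate cell markers, 2 rose and 3 fell (7 and 2 on the deposited scales; 1 rose without HFHC replicate 4), and of the 10 with no exonic overlap 1 rose and 2 fell. Of 28 genes of matrix remodelling, 4 rose and 4 fell (7 and 3 on the deposited scales), and of the 20 with no exonic overlap 2 rose and 2 fell. Of 22 TGF-beta pathway genes, 2 rose and 4 fell (8 and 1 on the deposited scales; 2 fell without HFHC replicate 1, 4 or 5 or CDAHFD replicate 1 or 2, and 4 rose without HFHC replicate 1), and of the 15 with no exonic overlap 2 rose and 3 fell. Of 14 cholangiocyte markers, 9 of them with no exonic overlap, 0 passed with limma, with a median log2 difference of -0.68, and 1 had an unadjusted p under 0.05; edgeR and DESeq2 each called 1 lower, and limma called 3 lower without CDAHFD replicate 3 and 2 higher on the deposited scales. Col1a1 was 2043, 616, 1032 and 1373 on HFHC and 1279, 1423, 1643, 1270.5 and 1528 on CDAHFD (adjusted p = 0.41), and Col3a1 was 4302, 1591, 1943 and 2804 and 2297, 2674, 3363, 2357 and 3069 (adjusted p = 0.69). For both collagens HFHC replicate 1 was the highest and replicate 2 the lowest of all 9 libraries, a wider spread than on CDAHFD. Acta2, smooth muscle actin of activated stellate cells, was 127, 460.0, 129 and 143 and 67.1, 105, 58.8, 103 and 253 (adjusted p = 0.18; past the threshold without CDAHFD replicate 5, at -1.16), and Lrat, which stores retinol in quiescent stellate cells, gave 0.08 (adjusted p = 0.73). Mmp2 fell from 524, 104, 255 and 314 to 56.9, 66.9, 99.5, 80.8 and 88.0 (log2 difference -1.73, SE 0.36, adjusted p = 0.0034). Timp3 and Tagln fell by more (-3.67 and -5.18 on the log2 scale), with 21.3% and 67.9% of their exonic bases overlapping opposite-strand genes. Mmp12, given above with the macrophage markers, is also on the matrix remodelling list and rose. The other members of these lists that rose are not reported here by name, so the named genes do not show the balance of the counts.

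**Figure D3:**
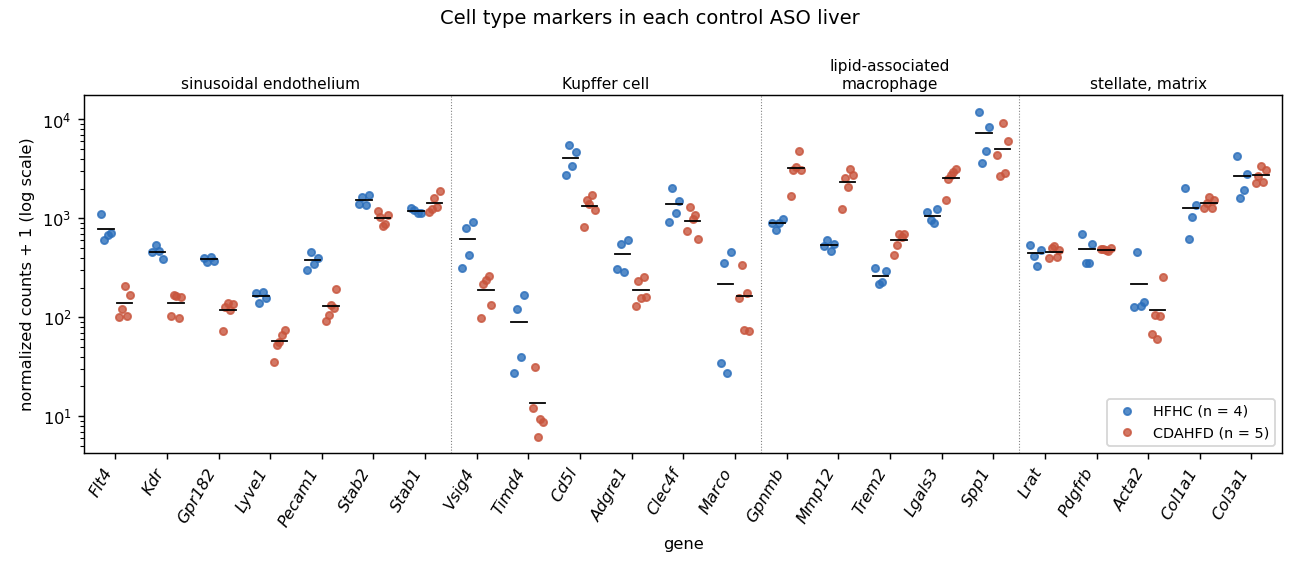
Normalized counts plus 1 (log axis) of markers of sinusoidal endothelium, Kupffer cells, lipid-associated macrophages and stellate cells or matrix in each control ASO liver; points are libraries (4 on HFHC, 5 on CDAHFD) and bars group means. Kdr is at 388 to 533 on HFHC and 98.4 to 166 on CDAHFD, while Col1a1 spans 616 to 2043 and 1270.5 to 1643.

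Most genes of endoplasmic reticulum (ER) stress were lower on CDAHFD, chaperones among them. Of 25 genes of ER stress and the integrated stress response, 17 fell and 4 rose (15.5% and 15.6% of all genes), and of the 18 with no exonic overlap 11 fell and 3 rose. Hspa5, the chaperone BiP, was 12601, 13132, 14363 and 12399 on HFHC and 6725, 6258, 5052, 6435 and 7641 on CDAHFD, with the highest CDAHFD liver far below the lowest HFHC liver (log2 difference -1.04, SE 0.11, adjusted p = 2.7e-05). Calr, calreticulin, fell from 12729 ± 759 to 6876 ± 1203 (log2 difference -0.91, SE 0.13, adjusted p = 2.1e-04), and Hyou1, a partner of BiP, from 2737 ± 326 to 1324 ± 284 (log2 difference -1.07, SE 0.15, adjusted p = 2.0e-04). Manf, a secreted ER protein, fell from 2101 ± 157 to 858 ± 333 (log2 difference -1.36, SE 0.20, adjusted p = 3.2e-04). The members that rose, Asns, Atf3, Trib3 and Ppp1r15a, are known as targets or partners of ATF4 and not as chaperones. Asns, asparagine synthetase, rose from 66.1, 30.0, 25.2 and 31.5 to 152, 156, 168, 111 and 104 (log2 difference 1.92, SE 0.27, adjusted p = 2.4e-04), Atf3 from 291 ± 67.1 to 918 ± 252 (log2 difference 1.65, SE 0.19, adjusted p = 5.9e-05) and Trib3 from 475 ± 15.8 to 866 ± 212 (log2 difference 0.83, SE 0.15, adjusted p = 0.0015). Chac1, also an ATF4 target, went the other way, from 195, 215, 279 and 265 to 122, 31.3, 22.5, 48.0 and 107 (log2 difference -2.12, SE 0.43, adjusted p = 0.003).

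Part of the urea cycle and of amino acid catabolism was higher. Of 31 members, 12 rose and 1 fell, and of the 25 with no exonic overlap 11 rose. Asl, argininosuccinate lyase, rose from 5201, 10538, 8093 and 6233 to 18921, 14539, 14610.2, 23080.1 and 14333 (log2 difference 1.21, SE 0.20, adjusted p = 8.0e-04), and Ass1, the synthase before it, from 21259, 39628, 35949 and 24342 to 58045, 54517, 66638, 87823 and 47112 (log2 difference 1.07, SE 0.22, adjusted p = 0.0035). Both genes had HFHC replicates 2 and 4 above replicates 1 and 5, as Abcg5 had. Hal, histidine ammonia-lyase, rose from 3481 ± 1874 to 7279 ± 1819 (log2 difference 1.19, SE 0.30, adjusted p = 0.01). Cps1, the first enzyme of the cycle, did not pass (0.37, adjusted p = 0.23). The member that fell was Bckdha (-3.03), with 61.7% of its exonic bases overlapping an opposite-strand gene.

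Some regulators of insulin and growth signalling were higher. Of 20 genes of insulin and IGF signalling, 7 rose and 1 fell, and of the 17 with no exonic overlap 6 rose. Igfbp1, an insulin-repressed binding protein, was 2127, 3806, 2718 and 2827 on HFHC and 15655, 8165, 4659, 12496 and 7880.4 on CDAHFD (log2 difference 1.68, SE 0.29, adjusted p = 0.001). Igfbp2 was 9236, 12522, 12474 and 11076 and 28344, 44589, 47222, 43991 and 21229.7 (log2 difference 1.66, SE 0.22, adjusted p = 1.8e-04). Irs2, the insulin receptor substrate repressed by insulin, rose from 573 ± 108 to 1375 ± 640.2 (log2 difference 1.17, SE 0.26, adjusted p = 0.0055), while Irs1 fell from 757 ± 67.9 to 195 ± 48.2 (log2 difference -1.99, SE 0.18, adjusted p = 9.1e-06; 30.9% overlap). The insulin receptor, Insr, did not pass (-0.05, adjusted p = 0.73).

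Mdm2 itself was 1057, 1108, 1126 and 1115 on HFHC and 1367, 1478, 1429.9, 1562 and 1532 on CDAHFD, higher in every CDAHFD liver (log2 difference 0.42, SE 0.06, adjusted p = 4.2e-04). Its gene is a target of p53, and of 34 p53 targets 11 rose and 3 fell, beside 15.6% and 15.5% of all genes. Among the 24 with no exonic overlap 9 rose and 2 fell. The 3 that fell are not reported here by name. Gdf15, a stress hormone also under ATF4, rose from 2060.1, 2909.7, 1976 and 1479 to 8419, 6033, 3271, 7734 and 8015 (log2 difference 1.63, SE 0.26, adjusted p = 6.0e-04), and Trp53inp1 from 2202 ± 552 to 6226 ± 3076 (log2 difference 1.38, SE 0.32, adjusted p = 0.0066). Cdkn1a, the p21 inhibitor, rose from 1879 ± 81.9 to 2456 ± 320.4 (log2 difference 0.38, SE 0.09, adjusted p = 0.009). It did not pass in 1 limma fit over all groups (adjusted p = 0.14). Of 31 cell cycle genes, 9 rose and 2 fell (18 and 0 on the deposited scales; 0 or 1 fell without any 1 of the HFHC libraries or CDAHFD replicate 1, 3 or 5), and of the 22 with no exonic overlap 7 rose and 1 fell. Most are at low levels: the mitotic kinase Aurka rose from 40.7 ± 10.9 to 108 ± 45.9 (log2 difference 1.33, SE 0.30, adjusted p = 0.0049) and the kinetochore motor Cenpe from 33.5 ± 12.5 to 91.1 ± 33.0 (log2 difference 1.42, SE 0.31, adjusted p = 0.004).

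Many interferon-stimulated genes rose by modest amounts. Of 33, 16 rose and 1 fell, with a median log2 difference of 0.34, and of the 24 with no exonic overlap 13 rose. Zbp1, a sensor of Z-form nucleic acid, was 324, 212, 236 and 198 on HFHC and 454, 505, 429.9, 528 and 426 on CDAHFD (log2 difference 0.97, SE 0.14, adjusted p = 2.4e-04), and Mx2, an antiviral GTPase, was 171, 201, 207 and 173 and 413, 388, 279, 408 and 323 (log2 difference 0.93, SE 0.13, adjusted p = 2.4e-04). Both separated the diets. Ifit1, which binds viral RNA, rose from 192 ± 45.5 to 443 ± 109.5 (log2 difference 1.20, SE 0.20, adjusted p = 8.9e-04), and Usp18, a brake on interferon signalling, from 438 ± 82.2 to 843 ± 181 (log2 difference 0.93, SE 0.17, adjusted p = 0.0015). The interferon regulator Irf7 gave 0.13 (adjusted p = 0.41).

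Acute phase proteins went both ways. Of 22, 4 rose and 6 fell, beside 15.6% and 15.5% of all genes. The counts were 10 and 3 on the deposited scales, and 6 and 5 without CDAHFD replicate 3. Among the 18 with no exonic overlap 4 rose and 4 fell. Saa3, the serum amyloid A of macrophages and other non-hepatic cells, was 232, 356, 274 and 272 on HFHC and 1316, 1504, 1123, 1478 and 2124 on CDAHFD (log2 difference 2.40, SE 0.17, adjusted p = 1.1e-06). Lcn2, lipocalin-2, rose from 4593 ± 949 to 10481 ± 1883 (log2 difference 1.19, SE 0.15, adjusted p = 8.2e-05), and Orm2, an orosomucoid, from 2082 ± 266 to 5255 ± 831 (log2 difference 1.33, SE 0.12, adjusted p = 9.8e-06). The fibrinogen chains fell together: Fga from 85264 ± 8357 to 42309 ± 8004 (log2 difference -1.03, SE 0.18, adjusted p = 0.001), Fgb from 81716 ± 8769 to 49422 ± 6474 (log2 difference -0.73, SE 0.16, adjusted p = 0.004) and Fgg from 58468 ± 5644 to 37604 ± 5442 (log2 difference -0.64, SE 0.15, adjusted p = 0.0055).

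Most ribosomal protein transcripts rose. Of 30 cytosolic ribosomal protein genes, 27 rose and 1 fell (median log2 difference 0.51), and of the 16 with no exonic overlap 15 rose. Rplp1 was 7916, 8349, 7609.7 and 7616 on HFHC and 14252, 13799.9, 15095, 13869 and 15608 on CDAHFD (log2 difference 0.88, SE 0.08, adjusted p = 6.5e-06), and Rpl13 was 3939.8, 4202, 3785 and 3949 and 7792, 8500.0, 8168, 8060.4 and 8337 (log2 difference 1.04, SE 0.07, adjusted p = 5.5e-07). All ribosomal protein genes together took a median of 1.37% of reads on HFHC and 1.90% on CDAHFD. Transcript length moved with the table as well, and ribosomal protein transcripts are short. Lengths were compared among genes with no exonic overlap and a mean of at least 50 normalized counts in the higher group. Of these, 31.2% of the 1847 shortest (79 to 2109 bases) rose and 9.96% fell, against 14.4% and 15.9% of the 1845 longest. The part of length in this result was not tested.

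Of 18 male-biased genes under growth hormone control, 8 rose, with a median log2 difference of 1.05, all of them among the 16 with no exonic overlap. Selenbp2, a selenium-binding protein, was 694, 292, 168 and 498 on HFHC and 7906, 7329, 2474, 2852 and 6749 on CDAHFD (log2 difference 3.76, SE 0.44, adjusted p = 5.7e-05), and Slco1a1, an organic anion carrier, was 695, 59.9, 78.2 and 178 and 1513, 1385, 811, 976 and 1087 (log2 difference 2.85, SE 0.55, adjusted p = 0.0021). Hsd3b5 was near the limit of detection on HFHC, at 3.61, 0, 3.78 and 2.33, and 42.7, 38.2, 30.3, 9.91 and 117 on CDAHFD (log2 difference 4.02, SE 0.74, adjusted p = 0.0015). Of 16 female-biased genes, 3 rose and 3 fell, close to the shares over all genes (15.6% and 15.5%). Among the 11 with no exonic overlap 2 rose and 2 fell. Cyp2b13 fell from 159 ± 110.2 to 6.57 ± 6.12 (log2 difference -4.65, SE 0.77, adjusted p = 7.9e-04), while Sult1e1, estrogen sulfotransferase, rose from 48.1, 437, 109.7 and 47.8 to 2245, 511, 545, 698 and 4837 (log2 difference 3.49, SE 0.75, adjusted p = 0.004). The log2 difference moved by over 1.5-fold on the linear scale when 1 HFHC library was left out: to 3.57 for Slco1a1 and -5.31 for Cyp2b13 without replicate 1, and to 3.31 for Hsd3b5 and 4.19 for Sult1e1 without replicate 2. Major urinary protein genes share long stretches of sequence, so their reads may be split between copies. Of this family the male-biased list holds Mup3, Mup7, Mup11 and Mup20. Its counts leave out Mup15, Mup17, Mup19 and Mup22, which went the other way, among the largest decreases in genes with no exonic overlap. Mup22 fell from 3387 ± 351 to 424 ± 157 (log2 difference -3.06, SE 0.20, adjusted p = 8.0e-07).

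Of 15 genes of retinol and vitamin A, 4 rose and 4 fell, beside 15.6% and 15.5% of all genes (7 and 3 on the deposited scales). Among the 12 with no exonic overlap 4 rose and 2 fell. Cyp26a1, the retinoic acid hydroxylase and itself induced by retinoic acid, was 66.1, 106, 151 and 106 on HFHC and 1096, 689, 406, 457 and 1037 on CDAHFD (log2 difference 2.72, SE 0.31, adjusted p = 5.1e-05). Cyp26b1, the form of non-parenchymal cells, fell from 130.3 ± 30.3 to 49.0 ± 25.6 (log2 difference -1.51, SE 0.32, adjusted p = 0.0039).

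The largest decreases were mostly in genes with opposite-strand overlap. Of the 12 largest decreases with separate groups and at least 50 normalized counts on HFHC, 9 had over 50% of their exonic bases overlapping another gene; of the 12 largest increases by the same rule 4 had any such overlap and 0 had over 50%. Pdcd2 held 1107 reads over the HFHC libraries and 0 over the CDAHFD libraries, at least 129-fold lower against a floor of 3 reads per library. All of its exonic bases overlap opposite-strand genes, of which Tbp held a mean of 314 on HFHC and 367 on CDAHFD (adjusted p = 0.17). Sco2, a copper chaperone of cytochrome oxidase, held 2250 and 1 reads (66.2% overlap with Ncaph2), and Ilk, integrin-linked kinase, fell from 1379 ± 53.5 to 8.70 ± 5.33 (89.7% overlap with Taf10). Mt2 fell from 2932 ± 367 to 36.6 ± 20.7 (73.5% overlap), whereas Mt1, the neighbouring metallothionein with no exonic overlap, rose from 5913 ± 844 to 12737 ± 3968 (log2 difference 1.06, SE 0.21, adjusted p = 0.0027). ND6, which alone among the mitochondrial protein genes is read from the other strand, rose from 5734 ± 1050.4 to 50433 ± 10275 (log2 difference 3.13, SE 0.16, adjusted p = 1.2e-07), while COX1 on the main strand gave 0.02 (adjusted p = 0.97).

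The 12 largest decreases in genes with no exonic overlap were Cidea, Scd1, Cfd, Cyp2b13, 4 Mup genes, Mir6236, Rufy4, Inmt and Adgrv1. Inmt, a methyltransferase of small amines, fell from 7531, 15766, 12147 and 9154 to 1306, 1176, 1508, 1705 and 996 (log2 difference -3.03, SE 0.20, adjusted p = 8.2e-07), and Adgrv1, an adhesion receptor, fell from 531 ± 257 to 71.6 ± 13.3 (log2 difference -2.76, SE 0.29, adjusted p = 2.6e-05). Among the 12 largest increases in such genes, Hdc, histidine decarboxylase and the source of histamine, rose from 150.0 ± 35.1 to 1409.5 ± 421 (log2 difference 3.20, SE 0.22, adjusted p = 1.1e-06), and Rundc3a was 78.2, 57.3, 59.3 and 64.1 on HFHC and 753, 595, 653, 768 and 724 on CDAHFD (log2 difference 3.43, SE 0.12, adjusted p = 7.8e-09). Among all genes below 50 normalized counts, 5.13% of the 819 that overlap an opposite-strand gene outside exons rose at least 8-fold. This compares with 0.906% of the 1987 with no exonic overlap and no opposite-strand gene nearby. At all levels the shares were 2.36% and 0.47%. With no such overlap but an opposite-strand gene within 5 kb, 19.1% rose and 9.44% fell, beside 14.2% and 12.2% with none nearby. The set with no exonic overlap includes these genes, and these differences were not tested. First among the largest increases by the same rule was Meg3, a maternally expressed noncoding RNA, from 30.1, 23.5, 39.1 and 35.0 to 1564, 1086, 7281, 2718 and 7609.5 (log2 difference 6.57, SE 0.51, adjusted p = 2.3e-06; 6.79% overlap). Mirg, a noncoding RNA of the same imprinted cluster, rose from 0, 2.61, 0 and 3.50 to 11.2, 21.7, 146, 49.6 and 138 (log2 difference 5.19, SE 0.87, adjusted p = 8.4e-04). In both, CDAHFD replicates 3 and 5 were the highest, and every HFHC liver was below every CDAHFD liver.

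**Figure D4:**
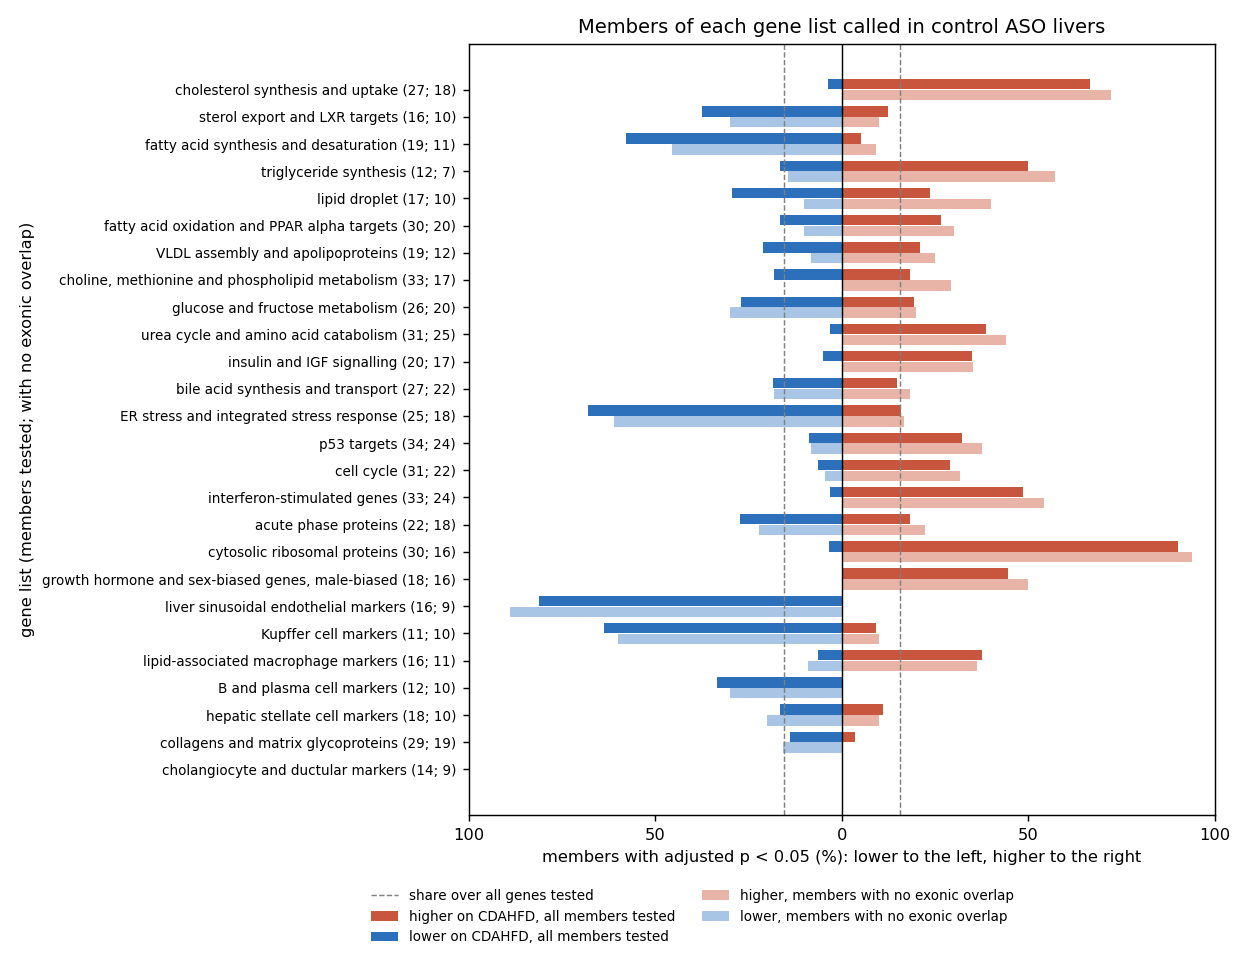
Percentage of the members of each gene list with an adjusted p under 0.05 in control ASO livers, lower on CDAHFD to the left and higher to the right; dark bars count all members tested and pale bars members whose exons overlap no other gene, with both numbers in brackets. Dashed lines mark the shares over all 17340 genes (15.5% lower, 15.6% higher). Sinusoidal endothelial markers reach 13 of 16 lower and ribosomal proteins 27 of 30 higher.

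The same contrast in livers that carried the Mdm2 ASO uses other libraries of the same tables, and so the same link of diet with experiment. Of 17935 genes tested there, 7920 passed (44.2%), 20.6% higher and 23.6% lower on CDAHFD. Among genes with no exonic overlap tested in both, 1103 of the 1810 that rose in control ASO livers also rose there (60.9%; 45.6% of the 2421 that rose there) and 123 fell. Of the 1247 that fell, 692 also fell (55.5%; 29.1% of 2381) and 24 rose. Several lists leaned the same way. Of 26 cholesterol synthesis genes 18 rose and 1 fell, and of 16 sinusoidal endothelial markers 12 fell. Log2 differences in the Mdm2 ASO livers were 2.98 for Sqle, -4.77 for Scd1, -1.94 for Kdr and -6.38 for Cidea, beside 3.67, -5.97, -1.77 and -7.91 in control ASO livers. Other lists did not. Of 31 cell cycle genes 21 fell with the Mdm2 ASO (9 rose and 2 fell with the control ASO), of 33 interferon-stimulated genes 5 rose and 17 fell (16 and 1), and of 14 cholangiocyte markers 11 rose (0 with the control ASO). Whether the 2 contrasts differ was not tested here.

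**Figure D5:**
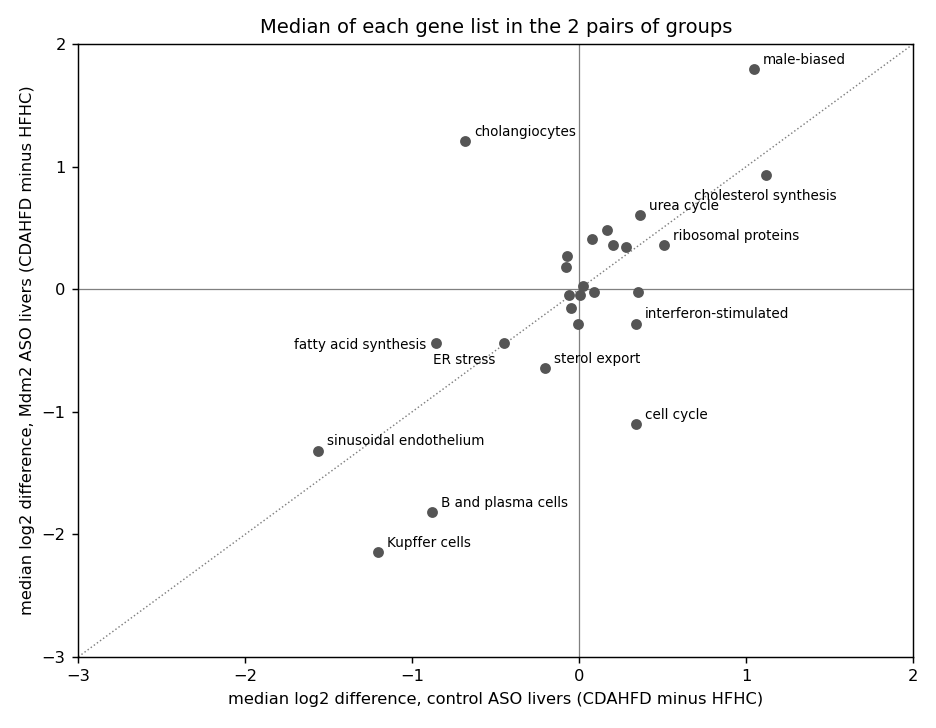
Median log2 difference (CDAHFD minus HFHC) of the members of each of 26 gene lists in control ASO livers (horizontal) and in Mdm2 ASO livers (vertical); each point is a list, and the dotted line marks equal values. Sinusoidal endothelium lies at -1.56 and -1.32, cholesterol synthesis at 1.12 and 0.93, and the cell cycle list at 0.34 and -1.10.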

How the data were processed

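RNA-seq of total liver RNA was aligned with STAR 2.7.10b and counted with featureCounts (Subread 2.0.3) on GRCm39, per the submitters' processing notes; the strand setting is not given in the sources used here. The deposited signal values are gene counts that the authors normalized, in 1 table per diet (33235 genes each). Each column is whole reads multiplied by a constant, and 100% of values came out whole within 0.002. Reads of the 9 control ASO libraries were recovered, scaled together by TMM (edgeR 4.0.16) to a common effective size, and joined by gene ID. A gene was tested if at least 4 libraries held a value of 1 or more. The test was limma 3.58.1 (trend, R 4.3.3) on log2(value + 0.5), with Benjamini-Hochberg adjustment over 17340 genes and a threshold of 0.05. On simulated reads of 17447 genes, with changes placed only in genes with a mean of at least 50 reads, this test found 91% of 2-fold and 97% of 4-fold changes. Of its 203 calls, 15 were unchanged genes. Only 100 genes were changed 2-fold and 100 were changed 4-fold, and no shift by overlap or length was simulated. The real contrast differs in both respects, so these rates do not carry over to it. The count tests of edgeR and DESeq2 1.42.0 on the recovered reads, other scalings, filters and left-out libraries are alternatives.

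Exonic overlaps came from GENCODE M21 (GRCm38), matched by Ensembl ID for 99.3% of genes tested; no coordinates were taken from it. Promoter stretches are RefSeq sequences of GRCm38.p6. Lists and figures were made with Python 3.11.15. The gene lists matched 1088 of 1090 entries. Members, lists and rules were chosen with earlier results of these data known. Named genes are Mdm2, the 12 largest differences in each direction among genes that passed, had separate groups, at least 50 normalized counts in the higher group and a symbol that is not a model name, the same among genes with no exonic overlap, from each list as many as 6 members that passed, lowest p first, and defining members that did not pass. Xist, Ddx3y and a few list members with larger p-values were chosen after their values were seen. Some list members are counted but are not reported here by name.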

Additional observations from a re-analysis of the deposited data

Results flagged for a closer look

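In 366 groups of 4 or 5 control ASO libraries, 1 per named gene and diet where values differed, 16 held a library far from the rest by Dixon's criterion, which chance alone meets in about 1 of 20 groups. HFHC replicate 2 was the high library for Acta2 (460.0 normalized counts, next 143), Tagln (692, next 269), Sult1e1 (437, next 109.7), Abcc3 (10658, next 9242) and Insr (3009, next 2731). HFHC replicate 1 was high for Asns (66.1, next 31.5) and low for Cyp4a14 (20714, next 32875) and Mttp (4486, next 4755). HFHC replicate 4 was high for COX1 (696010, next 583640) and low for Oit3 (232, next 263). On CDAHFD, replicate 5 was high for Acta2 (253, next 105), Manf (1429.9, next 845) and Sco2 (0.871, the rest at 0) and low for Fga (28331, next 43657). CDAHFD replicate 3 was low for Dgat2 (7604, next 9580.3), and CDAHFD replicate 2 was high for Timd4 (30.4, next 11.2).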

How the results depend on the processing

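The count of 5390 genes (2698 higher, 2692 lower on CDAHFD) moved by over 1.5 times in 2 of the alternatives. With the deposited values left on the tables' separate scales it was 8247 (6923 higher, 1324 lower), since a shift between the tables enters every difference, and among genes with no exonic overlap, fitted on their own, it was 2850 (1519 higher, 1331 lower), of fewer genes tested. Total-read scaling gave 4943 genes, 44.3% of them higher. The other scalings, filters, pseudocounts and tools, thinning to the reads of the smallest library, 1 fit over all groups, and leaving out mitochondrial genes gave 4991 to 5662. Leaving out 1 library gave 4055 to 5418 genes, 2124 to 2692 higher and 1931 to 2726 lower; in Mdm2 ASO livers (7920 genes) it gave 6028 to 7995. Same-numbered libraries of the 2 diets share only a number (correlations of their deviations -0.04 to 0.09). With the replicate number as a block over replicates 1, 2, 4 and 5, 5012 genes passed, against 5418 in the same 8 libraries without it, and 10 cholangiocyte markers were lower; in Mdm2 ASO livers the block gave 6544. Of 179 named genes, no called direction reversed in any alternative run. The call was kept by 178 with edgeR, 178 with DESeq2, 175 in 1 fit over all groups and 166 on the deposited scales. In the limma fit over all groups, Cdkn1a, Lpl and Ppp1r3c no longer passed (adjusted p = 0.14, 0.089 and 0.069). How often changes are found in genes with a mean under 50 reads was not measured.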

Other observations

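Some glutathione transferases were higher in control ASO livers on CDAHFD. Of 27 genes of the NRF2 and glutathione list, 8 rose and 5 fell (15.6% and 15.5% of all genes; 8 and 3 without HFHC replicate 4, 18 and 2 on the deposited scales), and of the 20 with no exonic overlap 8 rose and 1 fell. Gstm2, a transferase of the mu class, was 2434, 2581, 2539 and 2113 on HFHC and 4209.8, 4024, 4079, 5407 and 3424 on CDAHFD (log2 difference 0.80, SE 0.12, adjusted p = 3.0e-04), and Gsta4, which clears the lipid peroxidation product 4-hydroxynonenal, was 826, 1108, 1222 and 1049 and 1628, 1473, 1734, 1572 and 1483 (log2 difference 0.60, SE 0.10, adjusted p = 0.0011). Neither gene had overlapping groups. Gclc, the catalytic subunit of glutathione synthesis, fell from 9967 ± 866 to 6811 ± 1079 (SD, n = 4 and 5; log2 difference -0.56, SE 0.12, adjusted p = 0.0035), and the NRF2 targets Nqo1 and Hmox1 did not pass (adjusted p = 0.57 and 0.89).

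Of 17 genes of pericentral hepatocytes, the cells around the central vein, 7 rose and 2 fell, beside 15.6% and 15.5% of all genes. Among the 11 with no exonic overlap 5 rose and 2 fell. The 2 that fell are not reported here by name. Cyp1a2, a cytochrome P450 of that zone, rose from 3452, 5503, 5178 and 4464 to 11250.2, 13849, 7936, 8755 and 9766 (log2 difference 1.14, SE 0.17, adjusted p = 3.4e-04), and Lgr5, the R-spondin receptor, rose from 171 ± 30.0 to 307 ± 39.4 (log2 difference 0.85, SE 0.14, adjusted p = 7.1e-04). Glul and Cyp2e1, which also mark the zone, did not pass (adjusted p = 0.17 and 0.74). Among 24 hepatocyte identity genes, 6 rose and 2 fell, beside 15.6% and 15.5% of all genes (13 and 2 on the deposited scales). Of the 15 with no exonic overlap 5 rose and 0 fell. Serpina1a, an alpha-1-antitrypsin gene of a family of near-identical copies whose reads may be split, was 23691 ± 2432 on HFHC and 52879 ± 6280.0 on CDAHFD (log2 difference 1.16, SE 0.13, adjusted p = 5.0e-05). The fetal transcripts went opposite ways: Afp rose from 67.3, 30.0, 30.3 and 54.8 to 108, 114, 92.6, 134 and 98.4 (log2 difference 1.33, SE 0.25, adjusted p = 0.0018), and H19 fell from 280.2, 216, 282 and 439 to 33.5, 35.6, 56.2, 33.6 and 74.0 (log2 difference -2.72, SE 0.27, adjusted p = 1.6e-05).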
